A study of Mus musculus with 12 samples.

Results

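Osteoclasts are bone-resorbing cells that form when precursors of the monocyte and macrophage lineage fuse. The genes described here are 10 genes of osteoclast differentiation and function (Tnfrsf11a, Oscar, Calcr, Nfatc1, Dcstamp, Ocstamp, Atp6v0d2, Acp5, Ctsk and Itgb3). Chosen by name with earlier results of these data known, all 10 were found among the 54532 gene identifiers of the expression table. They were read in RNA-seq libraries of mouse MSC (mesenchymal stem cells) grown in osteogenic or adipogenic medium. Of the 10 genes, 6 reached 1 FPKM (fragments per kilobase of exon, scaled to library depth) in all 12 libraries and were among the 12871 genes tested, while Dcstamp, Ocstamp, Calcr and Oscar stayed below 1 FPKM everywhere and were not tested.

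The libraries were made from MSC of 4-week-old C57BL/6 mice at passage 3, and RNA was taken after 5 days of induction. The control groups, labelled WT, came from Chd7 fl/fl mice, and the groups labelled Chd7 KO came from Prx1-cre;Chd7 fl/fl mice, so both genotypes carried the floxed allele of Chd7, which encodes a chromatin remodeler. Prx1-cre is active in the mesenchyme of the limbs, and cells of the blood lineages are not expected to carry the deletion. Osteogenic medium held 50 µM ascorbic acid, 10 mM β-glycerophosphate and 10 nM dexamethasone. The adipogenic cocktail contained isobutylmethylxanthine at 0.5 µM, dexamethasone at 1 µM and insulin at 10 µg/ml. Each of the 4 groups (control and KO in each medium) had 3 libraries, with 17496214 to 21099116 fragments on genes per library. The labels tie no library to an animal or culture, so each p-value measures the spread between these libraries, which may be technical.

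RANKL, made by stromal cells, binds its receptor RANK on the precursor, and together with M-CSF it raises the transcription factor NFATc1. NFATc1 in turn switches on fusion genes and the genes that dissolve bone mineral and matrix. The same precursors express a large part of the RANK pathway before they become osteoclasts, since macrophages carry RANK, NFATc1 and several subunits of the proton pump.

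Markers of the macrophage lineage were abundant in these cultures labelled MSC. All 24 macrophage lineage genes examined were detected in every library, among them Lyz2 (macrophage lysozyme) at 3845 to 14412 FPKM and Csf1r, the M-CSF receptor, at 178 to 386 FPKM. Thy1, a surface marker of MSC, stood at 0.21 to 1.03 FPKM. The stromal genes Nt5e, Lepr and Twist2 were also low, at 0.35 to 1.44, 0.45 to 1.13 and 0.54 to 1.73 FPKM. Others were well expressed, with the collagen gene Col1a1 at 587 to 1073 FPKM and the transcription factor gene Prrx1 at 14.1 to 22.6 FPKM. The macrophage score, which averages log2(FPKM + 1) across the 24 genes of a library, was 7.43 ± 0.0083 (SD, n = 3) in control osteogenic, 7.19 ± 0.021 in KO osteogenic, 7.51 ± 0.35 in control adipogenic and 6.94 ± 0.11 in KO adipogenic libraries. Fewer cells of a type and less RNA per cell cannot be told apart in these bulk samples.

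Library 2 of the control adipogenic group stood apart from its group. Its score was 7.10, against 7.76 and 7.65 in libraries 1 and 3, and its log2 values correlated on average at 0.941 with the other libraries of its group and at 0.981 with those of control osteogenic cells. The adipogenic KO minus control differences are therefore given with all libraries and, for the 6 tested genes, the ligands and the lists, also without it. The targeted gene did not separate the genotypes in adipogenic medium, where Chd7 was at 1.81 to 2.26 FPKM in the control and 2.03 to 2.48 FPKM in the KO libraries. In osteogenic medium it was at 2.64 to 2.77 and 2.03 to 2.35 FPKM, with a limma adjusted p of 0.160 over all genes tested, so that KO stands here for the libraries labelled KO. FPKM covers the whole of Chd7 and not the deleted exon alone, so these values do not read the deletion itself.

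The sequences before the transcription starts are shown for Acp5, Ctsk and Tnfrsf11a, as a gene that split the adipogenic controls, a gene at nearly the same level in all groups and the gene with a called difference in osteogenic medium. Each run is the 250 bases before a start given by RefSeq on GRCm38.p6, read 5′ to 3′ on the strand of the gene. The capitals mark matches to GGAAA (the NFAT core), GAGGAA (the PU.1 core), TGANTCA (the AP-1 site) or the E-boxes CACGTG and CATGTG, searched on both strands, and matches may overlap.
Acp5, chr9:22135747-22135996, minus strand, the outermost of 3 starts in the table: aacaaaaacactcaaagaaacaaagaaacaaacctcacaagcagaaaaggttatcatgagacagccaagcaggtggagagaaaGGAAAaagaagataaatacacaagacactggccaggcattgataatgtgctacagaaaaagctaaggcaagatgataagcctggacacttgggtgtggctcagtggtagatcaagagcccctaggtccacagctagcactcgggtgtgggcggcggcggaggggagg
Ctsk, chr3:95498960-95499209, plus strand: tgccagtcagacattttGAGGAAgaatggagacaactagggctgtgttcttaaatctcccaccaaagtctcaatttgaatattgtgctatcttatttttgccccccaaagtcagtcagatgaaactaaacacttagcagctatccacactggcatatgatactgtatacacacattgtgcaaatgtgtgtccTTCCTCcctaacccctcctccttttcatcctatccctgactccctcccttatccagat
Tnfrsf11a, chr1:105780473-105780722, plus strand: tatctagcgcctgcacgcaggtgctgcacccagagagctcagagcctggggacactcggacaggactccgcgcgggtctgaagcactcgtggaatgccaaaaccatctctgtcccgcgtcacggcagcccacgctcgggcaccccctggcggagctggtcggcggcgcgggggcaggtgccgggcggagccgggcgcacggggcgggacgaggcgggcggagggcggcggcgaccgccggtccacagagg

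The promoter table held 5 of the 10 genes, with 8 windows. The outermost Acp5 window held 1 NFAT core, the Ctsk window held 2 PU.1 cores and the Tnfrsf11a window, whose last 5 bases are annotated as exon, held none of the letters searched. Oscar had 3 NFAT cores, 1 PU.1 core and 1 CATGTG. Of the other Acp5 windows, 22130599 to 22130848 held 2 NFAT cores and 1 CATGTG, and 22131866 to 22132115 held 1 NFAT core. Calcr had 1 NFAT core in 1 window and no match in the other. Among all 32817 windows of that length, 55.6% held GGAAA, 23.3% GAGGAA, 6.75% TGANTCA, 6.02% CACGTG and 12.3% CATGTG. These matches are a description of the letters and say nothing of binding.

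Tnfrsf11a encodes RANK, the receptor for RANKL, and lies on chromosome 1 at 105780718 to 105847981 (GRCm38, plus strand). In control osteogenic libraries 1 to 3 it was at 20.5, 19.4 and 19.4 FPKM, and in KO osteogenic libraries at 12.9, 13.2 and 13.3 FPKM. Every KO library was below every control library. The log2 difference, on the log2(FPKM + 1) scale used for all differences here, was -0.56 (SE 0.077, limma adjusted p = 0.00202), a fold of 0.680.

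In adipogenic medium Tnfrsf11a was at 15.9, 13.5 and 14.2 FPKM in the control and 14.3, 17.8 and 16.5 FPKM in the KO libraries. These groups overlapped, and the difference was 0.14 (SE 0.077, limma adjusted p = 0.175). It was called under TPM scaling, where each library is rescaled to the same sum (0.32, limma adjusted p = 0.0239), and without KO adipogenic library 1 (0.22, limma adjusted p = 0.0368), and without control adipogenic library 2 it was 0.09 (limma adjusted p = 0.346). The difference between the genotype effects in the media was tested as an interaction and was 0.70 (SE 0.11, limma adjusted p = 0.00185). It kept an adjusted p below 0.05 with any 1 of the 12 libraries left out, at 0.63 to 0.78. Between media, the control libraries were lower in adipogenic medium by a log2 difference of -0.42 (limma adjusted p = 0.00558) and the KO libraries were higher by 0.28 (limma adjusted p = 0.0225). The latter call was lost when KO osteogenic library 1, 2 or 3 or KO adipogenic library 2 or 3 was left out, with a lowest value of 0.21. The groups ordered as control osteogenic (19.8 ± 0.637 FPKM, SD, n = 3), KO adipogenic (16.2 ± 1.73), control adipogenic (14.5 ± 1.26) and KO osteogenic (13.1 ± 0.215), and the adipogenic groups overlapped.

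Oscar encodes a collagen-binding receptor that works with the adaptor FcRγ, and Calcr encodes the calcitonin receptor, a marker of mature osteoclasts. Oscar had 3 to 20 fragments per library and at most 0.577 FPKM. Its summed fragments were 14 (exact Poisson 95% interval 7.65 to 23.5) in control osteogenic, 23 (14.6 to 34.5) in KO osteogenic, 26 (17.0 to 38.1) in control adipogenic and 49 (36.3 to 64.8) in KO adipogenic libraries, and the intervals cover counting error only. The KO adipogenic libraries held 20, 12 and 17 fragments against 8, 12 and 6 in the adipogenic controls. In the fit with no filter on low values, that difference had a limma adjusted p of 0.130 on a log2 scale of 0.22. Calcr had 0 fragments in 9 of 12 libraries and 5 fragments in all, and the 3 fragments that a count of 0 allows correspond to 0.0366 to 0.0473 FPKM on this gene, depending on the library.

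**Figure D1:**
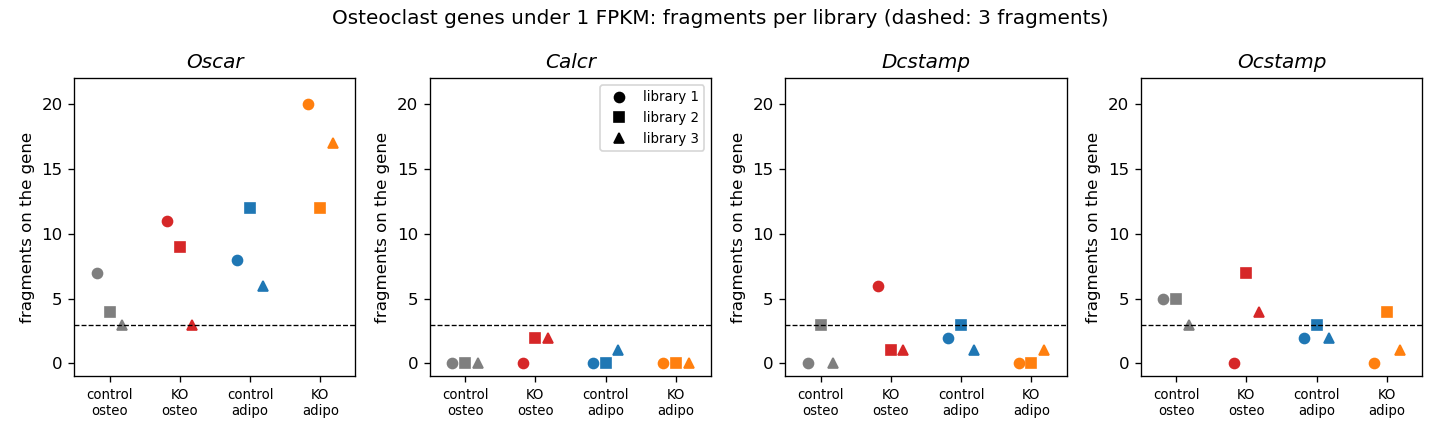
Fragments recovered on Oscar, Calcr, Dcstamp and Ocstamp in each library (y axis, fragments on the gene) by group (x axis), with the symbol giving the library number and the dashed line at 3 fragments. Oscar reached 20 fragments in KO adipogenic library 1, and the other 3 genes stayed between 0 and 7 fragments.

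Nfatc1 encodes NFATc1, the transcription factor that controls osteoclast formation, and lies on chromosome 18. Its levels were 8.49, 7.95 and 8.26 FPKM in control osteogenic and 8.20, 7.99 and 8.24 FPKM in KO osteogenic libraries, with a log2 difference of -0.01 (SE 0.053, limma adjusted p = 0.922). In adipogenic medium the controls were at 6.53, 7.37 and 6.83 FPKM and the KO libraries at 5.41, 5.64 and 6.05 FPKM. All KO adipogenic libraries were below all controls, with a log2 difference of -0.24 (SE 0.053, limma adjusted p = 0.00695). Without control library 2 it was -0.20 (limma adjusted p = 0.00709). Under TPM scaling, which moved the median gene of that comparison by 0.16, the difference was -0.08 (limma adjusted p = 0.555) and was not called.

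The Nfatc1 interaction was -0.23 (SE 0.074, limma adjusted p = 0.0569) and did not pass the threshold, while without control adipogenic library 2 it was -0.18 (limma adjusted p = 0.0457). Levels were lower in adipogenic than in osteogenic medium, by -0.22 in control (limma adjusted p = 0.0156) and by -0.45 in KO libraries (limma adjusted p = 0.000230). The control call was lost when control osteogenic library 1 or 3 or control adipogenic library 1 or 3 was left out, where the largest adjusted p in limma was 0.0615. Of the paralogues, Nfatc4 fell in KO adipogenic libraries, from 10.5, 7.68 and 11.03 FPKM to 4.90, 5.06 and 5.22 FPKM (log2 difference -0.81, limma adjusted p = 0.000426, and -0.96 without control library 2), while Nfatc2 and Nfatc3 were not called between genotypes in either medium.

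Cell fusion involves 3 genes of the list. Dcstamp and Ocstamp encode membrane proteins needed for precursors to fuse, and Atp6v0d2 encodes a proton pump subunit that also takes part in fusion. Dcstamp had 0 to 6 fragments per library and was at 0 in 4 of 12 libraries. Ocstamp had 0 to 7 fragments and was at 0 in 2 of 12 libraries. Neither rose above 0.125 FPKM in any group.

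Atp6v0d2, on chromosome 4 at 19876841 to 19922605 (GRCm38, minus strand), was well expressed in the same libraries. In osteogenic medium it was at 35.0, 35.9 and 37.6 FPKM in the control and 55.1, 59.5 and 56.4 FPKM in the KO libraries. The groups did not overlap, yet with the spread shared across all 12 libraries the log2 difference of 0.64 had an SE of 0.75 and a limma adjusted p of 0.686. Fitted on the 6 osteogenic libraries alone, the same difference had a limma adjusted p of 0.000179, and 26.6% of the 12871 genes were called. Without control adipogenic library 2 it was 0.0391 in limma, where 22.2% of genes were called. With the macrophage score of each library as a covariate the difference turned to -0.67 (limma adjusted p = 0.00473). The slope of that fit comes from the spread of the score inside groups. Its SD was 0.35 in control adipogenic, 0.11 in KO adipogenic, and 0.0083 and 0.021 in control and KO osteogenic libraries. The slope thus rests mainly on control adipogenic library 2 against libraries 1 and 3, and the fit carries that contrast into the other groups.

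In adipogenic medium Atp6v0d2 split the controls. It was at 2.11, 36.2 and 2.61 FPKM in control libraries 1 to 3 and at 16.3, 30.2 and 29.7 FPKM in KO libraries. Control library 2 lay at the level of the osteogenic controls and libraries 1 and 3 lay below every other library of the study. The KO minus control difference was 1.77 (SE 0.75, limma adjusted p = 0.0962) with all libraries. Without control library 2 it was 2.93 (limma adjusted p = 3.76e-06). With the macrophage score as a covariate it turned to -1.38 (limma adjusted p = 0.000730), and the interaction was -0.72 (limma adjusted p = 0.0172). The same limit on the slope of the covariate applies to both values. The paralogue Atp6v0d1, which encodes the subunit used in most cells, was at 115 to 127 FPKM in all libraries and was not called in any of the 5 comparisons.

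Acp5 encodes TRAP, the tartrate-resistant acid phosphatase used as a stain for osteoclasts, and lies on chromosome 9 at 22126727 to 22135711 (GRCm38, minus strand). In osteogenic medium it was low, at 2.74, 3.16 and 3.87 FPKM in the control and 4.85, 3.95 and 4.19 FPKM in the KO libraries. The groups did not overlap but the difference was not called (0.33, SE 0.74, limma adjusted p = 0.852). In adipogenic medium it was at 35.2, 2.57 and 33.6 FPKM in the control and 9.31, 3.61 and 3.53 FPKM in the KO libraries. Control libraries 1 and 3 were the only libraries above 10 FPKM, and library 2 was the lowest of all 12.

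With all libraries the Acp5 difference in adipogenic medium was -1.46 (SE 0.74, limma adjusted p = 0.156). Without control library 2 it was -2.56 (limma adjusted p = 8.25e-05). With the macrophage score as a covariate it turned to 1.63 (limma adjusted p = 0.000963), where the slope again rests mainly on control library 2. Acp5 and Atp6v0d2 thus lay on opposite sides in the same libraries: control adipogenic libraries 1 and 3 were high in Acp5 and low in Atp6v0d2, and KO library 1 was between them and the other libraries in both genes. The same 2 control libraries had Adgre1, the gene of the macrophage antigen F4/80, at 1171 and 1136 FPKM, against 227 FPKM in library 2, and the part of Adgre1 in the Acp5 and Atp6v0d2 values was not tested. Other macrophage genes went the other way, with Cd68 at 517, 861 and 491 FPKM and Mrc1 at 36.8, 107 and 35.7 FPKM in control libraries 1 to 3. Without library 2, 13 of 24 macrophage genes were called higher and 10 lower in adipogenic than in osteogenic controls, where 47.8% of all genes were called. Acp2, the gene of the lysosomal acid phosphatase, was at 67.1, 31.7 and 63.2 FPKM in the adipogenic controls.

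Ctsk encodes cathepsin K, the protease that degrades bone collagen and is made by osteoclasts and by some stromal cells, and it lies on chromosome 3 at 95499256 to 95509362 (GRCm38, plus strand). Its FPKM was 40.0, 35.5 and 35.1 in control osteogenic, 45.4, 39.7 and 43.9 in KO osteogenic, 38.2, 39.1 and 40.0 in control adipogenic and 41.2, 34.9 and 38.9 in KO adipogenic libraries. All 4 groups overlapped with at least 1 other group. No comparison was called: the osteogenic difference was 0.22 (SE 0.074, limma adjusted p = 0.105) and the adipogenic difference -0.03 (SE 0.074, limma adjusted p = 0.779, and -0.03 without control library 2), which changed sign to 0.15 under TPM scaling. Ctsk did not follow Acp5 in the libraries where Acp5 was high.

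Other cathepsins were far more abundant per length. Ctsb was at 1298 to 2652 FPKM and Ctss, the cathepsin of antigen-presenting cells, at 1240 to 1978 FPKM, while Ctsl was at 108 to 147 FPKM. Ctss fell in KO osteogenic libraries by 0.37 on the log2 scale (limma adjusted p = 0.00898). Ctsb and Ctsl were not called between genotypes with all libraries, while Ctsb was higher in KO adipogenic libraries without control library 2 (0.54, limma adjusted p = 5.61e-06).

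Itgb3 encodes integrin β3, which pairs with αv in the podosomes by which osteoclasts attach to bone, and lies on chromosome 11 at 104608000 to 104670476 (GRCm38, plus strand). In osteogenic medium it was at 4.42, 3.89 and 3.58 FPKM in the control and 5.37, 4.91 and 5.90 FPKM in the KO libraries. The KO libraries were all higher, with a difference of 0.37 (SE 0.16, limma adjusted p = 0.202) that was not called. Fitted on the 6 osteogenic libraries alone it was called (limma adjusted p = 0.0191), where 26.6% of all genes were called. Without control adipogenic library 2 it was also called (limma adjusted p = 0.0179), where 22.2% of all genes were called. In adipogenic medium the control libraries were at 2.69, 4.32 and 2.20 FPKM and the KO libraries at 1.498, 1.67 and 1.87 FPKM.

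Every KO adipogenic library was below every control, and the difference was -0.57 (SE 0.16, limma adjusted p = 0.0210). The call was lost without KO library 1 (-0.52, limma adjusted p = 0.0611) or KO library 2 (-0.57), and without control library 2 the value was -0.36 (limma adjusted p = 0.0136). Under TPM scaling it was -0.45 (limma adjusted p = 0.112). The interaction of -0.94 (SE 0.23, limma adjusted p = 0.0167) was called, but not under TPM scaling (-0.81, limma adjusted p = 0.0750). Between media, Itgb3 was lower in adipogenic KO libraries by a log2 difference of -1.25 (SE 0.16, limma adjusted p = 0.000382), the largest called difference of any gene of the list in the fit of all libraries. Itgav, the partner, rose in KO adipogenic libraries, from 28.3, 29.1 and 29.3 FPKM to 35.2, 40.8 and 38.9 FPKM (log2 difference 0.39, limma adjusted p = 0.00112, and 0.40 without control library 2). Integrin β3 is also an integrin of platelets, and of 8 megakaryocyte and platelet genes 2 were tested, Pf4 and Ppbp, both lower in KO adipogenic libraries. Untested genes of that list, all below 1 FPKM, went the other way. Itga2b was at 0.40, 0.35 and 0.43 FPKM in KO and 0.20, 0.32 and 0.33 FPKM in control adipogenic libraries, and Gp1ba averaged 0.40 and 0.21 FPKM. The part of these genes in the Itgb3 values was not tested.

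**Figure D2:**
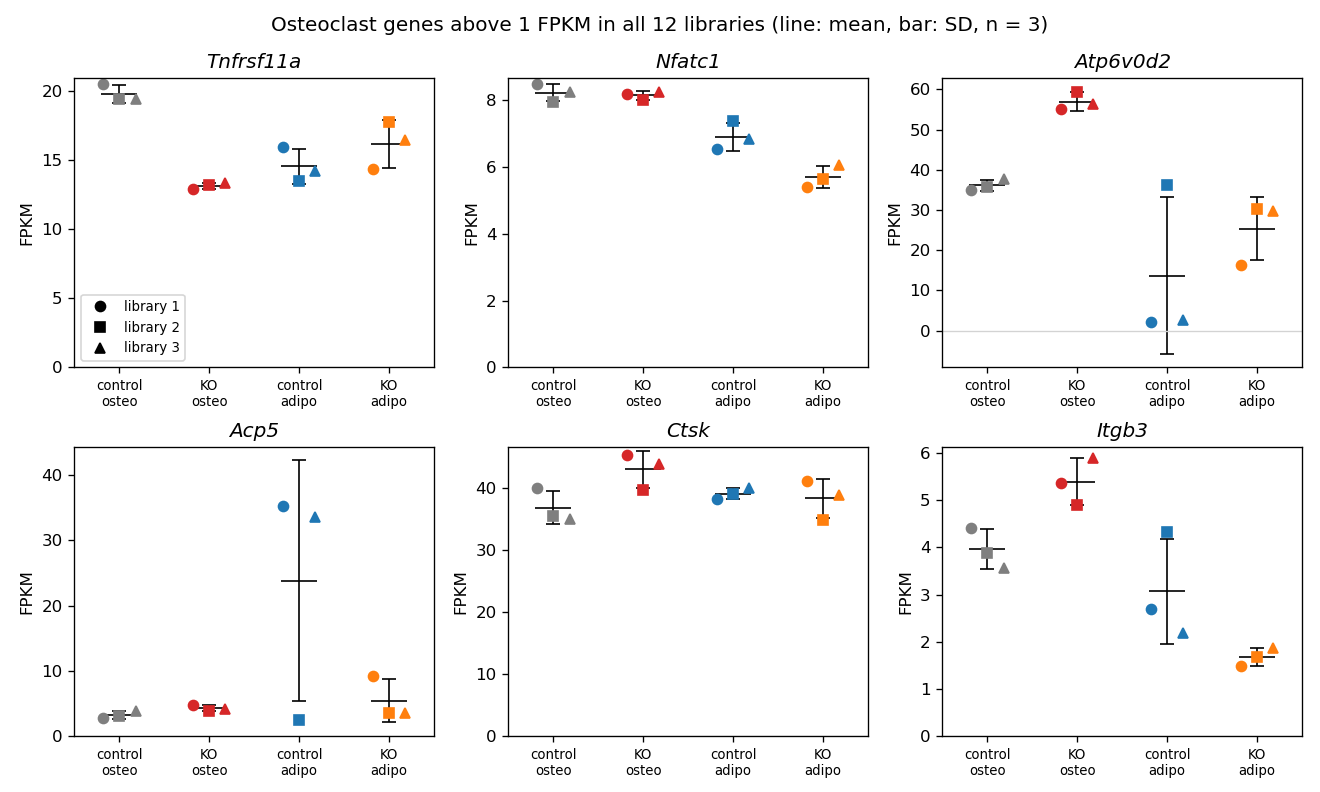
FPKM of the 6 tested genes in each library (y axis from 0, except Atp6v0d2, where an error bar runs below 0) by group (x axis), with symbols for libraries 1 to 3, a line at the mean and bars of 1 SD (n = 3). Control adipogenic libraries 1 and 3 sit at 35.2 and 33.6 FPKM for Acp5 and 2.11 and 2.61 FPKM for Atp6v0d2, while library 2 is near the osteogenic controls in both genes.

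Counted over the list, 1 of 6 tested genes was called between KO and control in osteogenic medium (0 higher, 1 lower), where 9.09% of all 12871 tested genes were called, 4.94% higher and 4.15% lower. In adipogenic medium 2 of 6 were called (0 higher, 2 lower), against 33.2% of all genes, 16.7% higher and 16.5% lower. The interaction was called for 2 of 6, Tnfrsf11a upward and Itgb3 downward, against 20.4% of all genes, 10.9% upward and 9.58% downward. Between media, 2 of 6 were called in control libraries, both lower in adipogenic medium, against 22.8% of all genes, 10.5% higher and 12.3% lower. In KO libraries 3 of 6 were called, 1 higher and 2 lower, against 27.9% of all genes, 13.9% higher and 14% lower. With so few members, these shares are read only beside their background.

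The counts moved when control adipogenic library 2 was left out. They became 3 of 6 in osteogenic medium (all genes 22.2%), 4 of 6 in adipogenic medium (51%), 5 of 6 for the interaction (42.2%), 5 of 6 between media in control libraries (47.8%) and 4 of 6 between media in KO libraries (42.5%). The background rose with them. Only Ctsk was called in none of the 5 comparisons without that library.

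**Figure D3:**
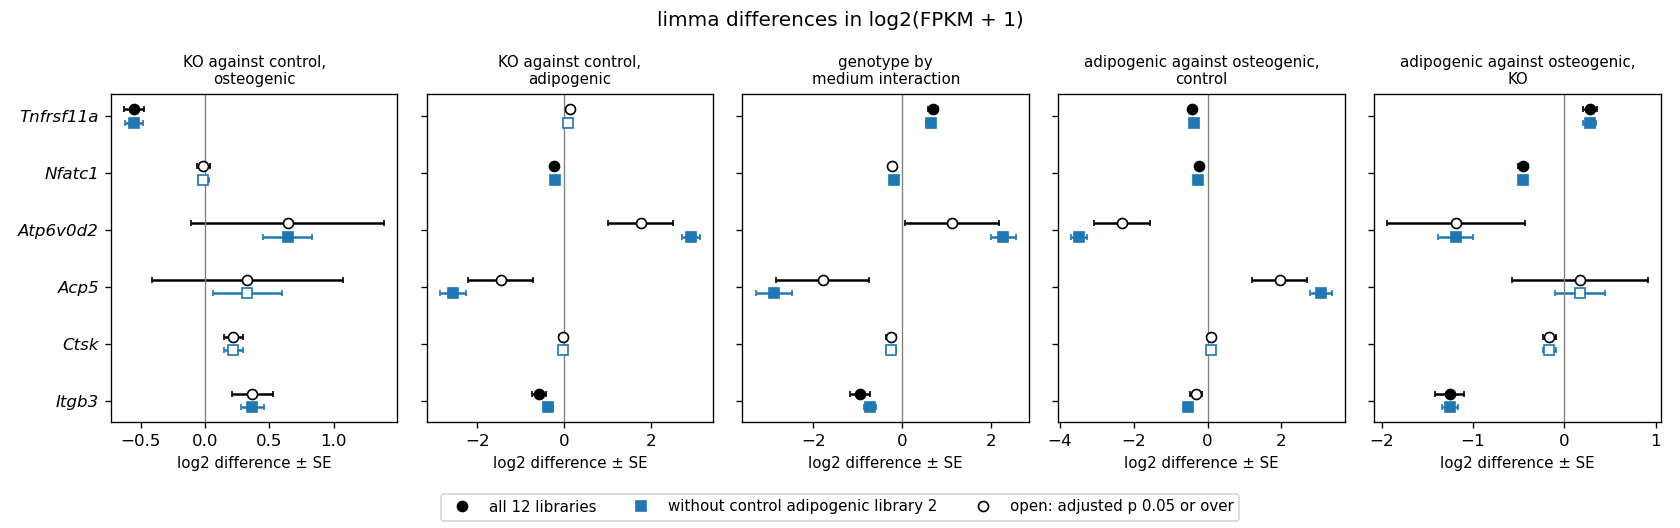
log2 differences of the 6 tested genes (x axis, difference in log2(FPKM + 1) with SE bars) in the 5 comparisons, for all 12 libraries in black and without control adipogenic library 2 in blue, filled where the limma adjusted p is under 0.05. The SE of Atp6v0d2 and Acp5 shrinks when the library is left out, and their adipogenic differences become 2.93 and -2.56.

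Since macrophage RNA differed between the groups, each gene was also read relative to the macrophage score of its library. In osteogenic medium 1 macrophage gene of 24 was called higher and 5 lower in KO libraries, beside 4.94% and 4.15% of all genes tested. The summed level of the 24 genes was 16661 to 17204 FPKM in the control and 17853 to 18335 FPKM in the KO libraries. Tnfrsf11a minus the score was lower there in KO by 0.32 on the log2 scale. Atp6v0d2 was higher in KO by 0.88, Itgb3 by 0.60, Acp5 by 0.57, Ctsk by 0.45 and Nfatc1 by 0.22 on this relative scale. For all 6 the libraries of the 2 genotypes did not overlap, which gives the exact two-sided permutation p of 0.1, the smallest that 3 against 3 libraries allow. The score itself was 7.43 ± 0.0083 in control and 7.19 ± 0.021 in KO libraries, which lifts every gene in KO on this scale. Nfatc1 differed by -0.01 before the score was subtracted, and only Tnfrsf11a went against the shift. The share of all genes without overlap on this scale was not computed, so the lack of overlap cannot be read as particular to these genes.

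In adipogenic medium 4 macrophage genes of 24 were called higher and 14 lower in KO libraries, beside 16.7% and 16.5% of all genes tested. The summed level was 11593 to 21713 FPKM in the control and 9417 to 10988 FPKM in the KO libraries. On the relative scale Tnfrsf11a was higher in KO by 0.71 and Ctsk by 0.54, both with an exact permutation p of 0.1. The score was lower in KO here too, at 6.94 ± 0.11 against 7.51 ± 0.35, which lifts every gene on this scale. Ctsk differed by -0.03 before the score was subtracted. Nfatc1, which was lower in KO libraries in FPKM, was higher by 0.33 relative to the score, with an exact permutation p of 0.4. Itgb3 differed by 0.00033 on this scale, with an exact permutation p of 1. Atp6v0d2 (2.34) and Acp5 (-0.89) each had an exact permutation p of 0.4. Without control library 2 the relative differences were 0.87 for Tnfrsf11a, 0.74 for Ctsk, 0.57 for Nfatc1, 3.70 for Atp6v0d2 and -1.79 for Acp5, each with the exact permutation p of 0.1 that is the smallest 2 against 3 libraries allow. Itgb3 then differed by 0.41 with groups that did not overlap and an exact permutation p of 0.2. No macrophage gene of the list was at 0 in any library.

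**Figure D4:**
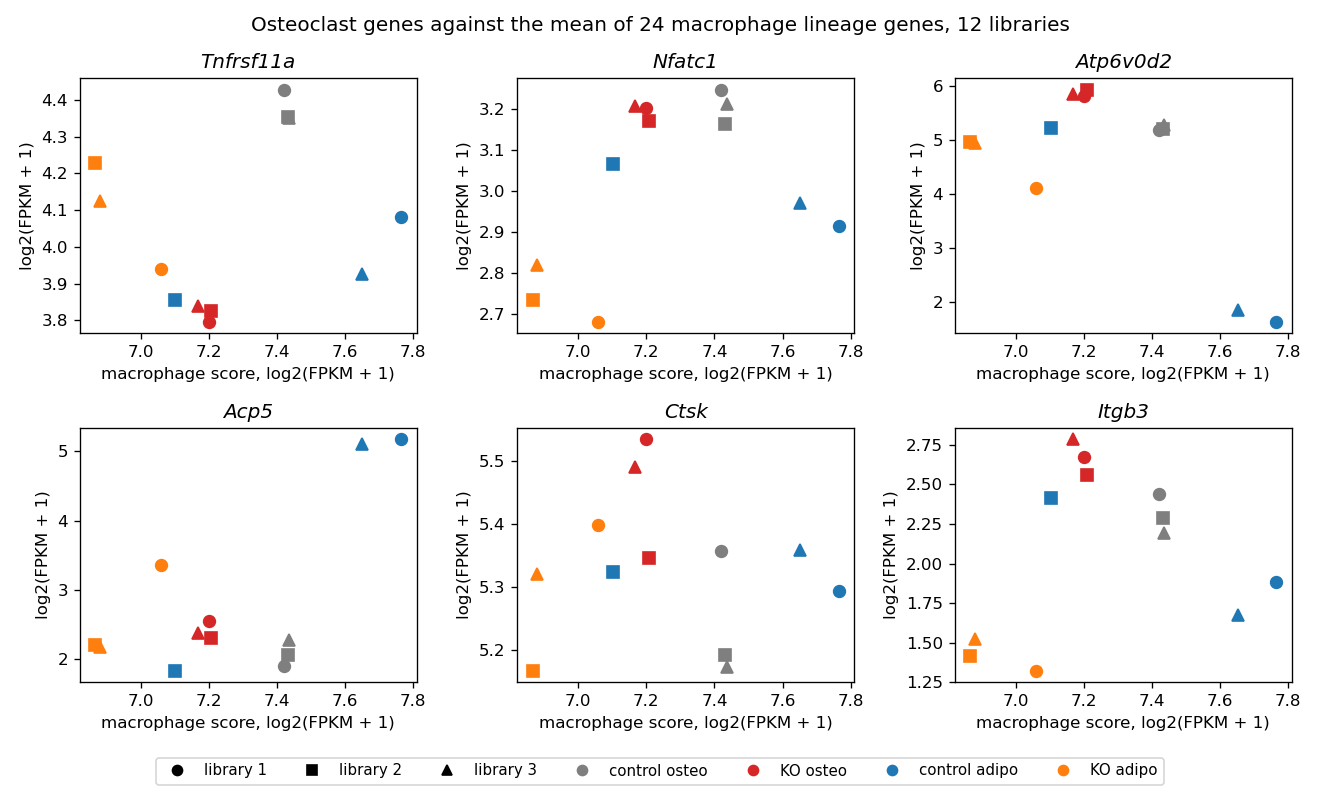
log2(FPKM + 1) of the 6 tested genes (y axis) against the macrophage score (x axis, mean log2(FPKM + 1) of 24 genes) in the 12 libraries, colored by group with symbols for the library number. The Acp5 panel has control adipogenic libraries 1 and 3 at the highest scores of 7.76 and 7.65, and the Atp6v0d2 panel has the same libraries lowest.

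For each tested gene the 3 genes of nearest profile were sought, as the smallest root mean square difference of centred log2 values over the 12 libraries. For Acp5 they were Socs3 (0.17), Hcar2 (0.19) and Aoah (0.21), against an SD of Acp5 itself of 1.17. Socs3, a feedback inhibitor of cytokine signalling, was at 86.2, 11.6 and 84.1 FPKM in the adipogenic controls. For Itgb3 they were Ccna2 (0.11), Kif11 (0.12) and Cenpa (0.13), which encode cyclin A2, a spindle motor and a centromeric histone, against an SD of 0.51.

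For Atp6v0d2 the nearest were Cxcr4 (0.55), Abcg3 (0.58) and Trav13-4-dv7 (0.58), at a larger distance beside an SD of 1.45. Cxcr4, a chemokine receptor gene, was at 5.59, 27.0 and 5.67 FPKM in the adipogenic controls. For Tnfrsf11a they were Jade2 (0.086), Ap1s2 (0.090) and Kcnk13 (0.091). Nfatc1 was nearest to Tex2 (0.051), Plekho1 (0.061) and Stx2 (0.064), and Ctsk to Chst12 (0.062), Rab23 (0.063) and Ybx3 (0.072).

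The ligands of the pathway were measured in the same libraries. Tnfsf11, which encodes RANKL, was at 1.33, 1.14 and 1.01 FPKM in control osteogenic, 1.15, 1.24 and 1.13 FPKM in KO osteogenic, 9.04, 1.92 and 10.7 FPKM in control adipogenic and 1.17, 0.76 and 0.52 FPKM in KO adipogenic libraries. It fell in KO adipogenic libraries, with a log2 difference of -1.96 (limma adjusted p = 0.00570), and the control libraries that were high were again libraries 1 and 3. Without control library 2 the difference was -2.59, and with the macrophage score as a covariate it was -0.31 (limma adjusted p = 0.375). The slope of the covariate rests mainly on control library 2. Csf1, which encodes M-CSF, rose from 128, 161 and 126 FPKM to 310, 282 and 291 FPKM (log2 difference 1.09, limma adjusted p = 1.77e-05, and 1.21 without control library 2) in adipogenic medium. Tnfrsf11b, which encodes osteoprotegerin, the soluble decoy for RANKL, rose in KO libraries by 0.80 in osteogenic (limma adjusted p = 0.000950) and by 0.40 in adipogenic medium (limma adjusted p = 0.0113), where it was 0.28 without control library 2.

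Among 25 genes of RANK and M-CSF signalling, 1 was higher and 1 lower in KO osteogenic libraries, and 5 were higher and 7 lower in KO adipogenic libraries. These are 8% and 48% of the list, beside 9.09% and 33.2% of all genes tested, the background for each list that follows. Without control adipogenic library 2, where the background was 51% in adipogenic medium, 4 were higher and 16 lower there. The median log2 differences were 0.01 and -0.30, beside -0.01 in either medium over all genes tested. In osteogenic medium the called genes were Tnfrsf11b and Csf1r (log2 difference -0.68, limma adjusted p = 0.0136), whose call was lost without control osteogenic library 2 or KO osteogenic library 1 or 3. The largest adipogenic changes were those of Csf1 and Tnfsf11. This list and those that follow were chosen with earlier results of these data known, so their shares are a description only.

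Costimulatory receptors and calcium signalling had 19 tested genes, of which 1 was higher and 1 lower in KO osteogenic and 1 higher and 11 lower in KO adipogenic libraries (median log2 difference -0.42), or 10.5% and 63.2% of the list. Without control adipogenic library 2, 3 were higher and 12 lower in adipogenic medium. Plcg1, a phospholipase that releases calcium, rose by 0.32 in osteogenic medium. Btk, a kinase gene, fell by 0.22 there, a call lost in 9 of the 12 fits that left out 1 library, and Ppp3ca, a calcineurin subunit gene, rose by 0.17 in adipogenic medium, a call lost in 8 of 12. Sirpb1a, a receptor gene, had the largest decrease in adipogenic medium, -1.06, a call that was lost without control adipogenic library 1 or 3 or KO adipogenic library 3. Of the macrophage list, 14 of 24 genes were lower in the same comparison, and this list and that one share Tyrobp and Fcer1g.

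Of 16 tested osteoclast transcription factor genes, 2 were lower in KO osteogenic libraries, and 1 was higher and 7 lower in KO adipogenic libraries (median log2 difference -0.26), or 12.5% and 50% of the list. Without control adipogenic library 2, 4 were higher and 10 lower in adipogenic medium. Id1, an inhibitor of helix-loop-helix factors, fell by 1.25 in osteogenic medium (limma adjusted p = 0.00216) and rose by 0.92 in adipogenic medium (limma adjusted p = 0.00336), with an interaction of 2.17. Prdm1, the gene of the repressor Blimp1, fell by 1.22 in adipogenic medium (limma adjusted p = 0.000566).

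Of 12 further fusion genes, 2 were lower in KO osteogenic libraries, and 6 were higher and 3 lower in KO adipogenic libraries (median log2 difference 0.13), or 16.7% and 75% of the list. Without control adipogenic library 2, 6 were higher and 5 lower in adipogenic medium. Adam8, a membrane metalloprotease gene, fell by 0.59 in osteogenic medium, and Pdpn, the podoplanin gene, fell by 2.10 in adipogenic medium. Adam12, a related metalloprotease gene, rose by 1.36 in adipogenic medium (limma adjusted p = 4.96e-06). It was called lower in KO osteogenic libraries, at -0.61 to -0.52 with any 1 library left out. Adam8 was called higher in KO adipogenic libraries, a call lost in 3 of the 12 fits that left out 1 library. The interaction was called for Adam8 and for Adam12.

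The resorption machinery had 32 tested genes, with 5 lower in KO osteogenic libraries and 8 higher and 5 lower in KO adipogenic libraries (median log2 differences -0.05 in both), or 15.6% and 40.6% of the list. Without control adipogenic library 2, 10 were higher and 11 lower in adipogenic medium. Its general lysosomal parts were expressed in all groups, with the proton pump subunit Tcirg1 at 118 to 170 FPKM and the chloride channel Clcn7 at 40.8 to 52.7 FPKM. The proton pump subunit Atp6v1g1 rose by 0.64 in adipogenic medium (limma adjusted p = 0.000152). Mmp9, an osteoclast metalloprotease, was at 0.19 to 2.10 FPKM and had the largest decrease in adipogenic medium (log2 difference -0.79, limma adjusted p = 0.0398), a call lost in 11 of the 12 fits that left out 1 library. Car2, the carbonic anhydrase that supplies protons, was at 0.022 to 0.377 FPKM.

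Podosome and adhesion genes had 18 tested members, of which 2 were higher and 4 lower in KO osteogenic libraries, and 7 were higher and 5 lower in KO adipogenic libraries (median log2 differences -0.10 and -0.02), or 33.3% and 66.7% of the list. Leaving out control adipogenic library 2 gave 8 higher and 8 lower in adipogenic medium. Spp1, which encodes osteopontin, a ligand of αvβ3, rose by 0.63 in osteogenic medium (limma adjusted p = 0.000950), and Was, an actin regulator of blood cells, fell by 0.40. Ibsp, the gene of bone sialoprotein, rose by 1.26 in adipogenic medium, and Rac2, a GTPase gene of blood cells, fell by 1.53 there, a call lost without control adipogenic library 1 or 3 or KO adipogenic library 2 or 3.

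**Figure D5:**
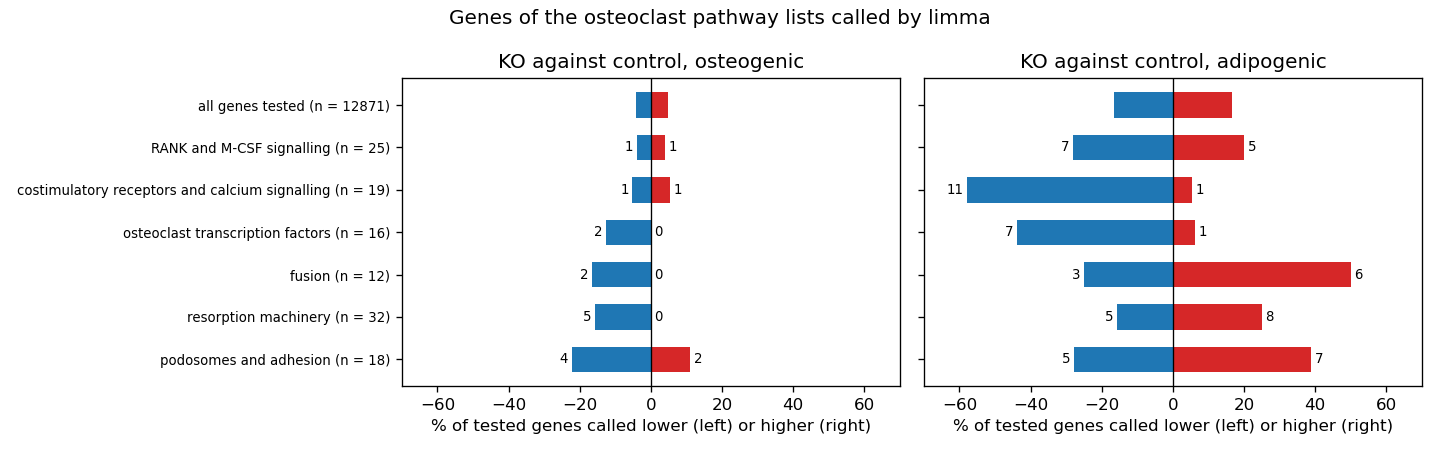
Share of tested genes called lower (blue, left) or higher (red, right) between KO and control by limma in each medium (x axis, percent), for all genes and 6 lists of the osteoclast pathway, with the number called beside each bar. Costimulatory receptors and calcium signalling have 11 of 19 genes lower in adipogenic medium, where 16.5% of all genes were lower. The lists were chosen with earlier results of these data known.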

How the data were processed

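The authors deposited 1 table of FPKM per gene and library for 12 libraries (4 groups of 3). Per the paper's methods, the NEBNext Ultra kit was used and libraries were sequenced on a HiSeq 2500, and checked with FastQC and FASTX. The paper's software list also names HISAT2 and Ballgown, with no role given. The submitters' processing notes name Bowtie 0.12.2 and mm9, so aligner and build are not settled. Symbols came from GENCODE M21 (GRCm38) for 54409 of 54532 identifiers. FPKM times exonic length gave whole fragments (within 0.02) for 98.2% to 98.4% of values under 30 fragments. The deposited FPKM were already scaled by median ratios.

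Genes with at least 1 FPKM in at least 3 libraries (12871) were fitted as log2(FPKM + 1) with limma 3.58.1 (R 4.3.3), a mean for each group, a trend of variance on mean level and adjustment after Benjamini-Hochberg, with calls at an adjusted p under 0.05. A fold on this scale understates the change of low genes. The members and lists were chosen with earlier results of these data known. All 10 members are described, and of each pathway list the gene with the largest called increase and decrease in a medium is named. Alternatives changed the pseudocount (0.1), filter, scaling, trend, libraries, replicate block, a macrophage covariate and limma voom on recovered fragments, and left out each library. Libraries were fitted unpaired in the main fit. The deviations of equal replicate numbers correlated between -0.286 and 0.466, which cannot settle whether the numbers mark a pairing. No column was left unmapped.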

Additional observations from a re-analysis of the deposited data

Results flagged for a closer look

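Tnfrsf11a and Itgb3 were set aside because the effect of the KO label differed between the media by the interaction test of the limma fit. For Tnfrsf11a the difference of the KO minus control differences, adipogenic minus osteogenic, was 0.70 (adjusted p = 0.00185), from -0.56 in osteogenic and 0.14 in adipogenic medium. For Itgb3 it was -0.94 (limma adjusted p = 0.0167), from 0.37 and -0.57. Both directions held with any 1 library left out. Under TPM scaling the Tnfrsf11a value was 0.89 and that of Itgb3 was -0.81, which was not called (limma adjusted p = 0.0750). Control adipogenic library 2, which stood apart from its group, moved the Itgb3 value to -0.73 and the Tnfrsf11a value to 0.65 when left out. The macrophage score differed between the same groups, and its part in these differences was not tested beyond the fit with the score as a covariate, where the values were 0.75 for Tnfrsf11a and -1.26 for Itgb3. The slope of that fit rests mainly on control adipogenic library 2.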

How the results depend on the processing

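The number of members called out of 6, given for KO against control in osteogenic medium, in adipogenic medium, the interaction, adipogenic against osteogenic medium in control and the same in KO libraries, was 1, 2, 2, 2 and 3. Of all genes tested, 9.09%, 33.2%, 20.4%, 22.8% and 27.9% were called in the same order. With the macrophage score as a covariate it was 3, 4, 4, 4 and 5 members, beside 26.3%, 26.0%, 27.6%, 36.7% and 46.5% of all genes. With only the libraries compared it was 3 in osteogenic medium, 0 in adipogenic medium (limma, with 2 at an unadjusted p under 0.05, where limma voom on all libraries called 2) and 1 between media in control libraries. In these 3 fits 26.6%, 13.0% and 3.81% of all genes were called. TPM scaling gave 1 in adipogenic medium and 1 for the interaction, in both cases Tnfrsf11a, which was higher (0.32 and 0.89), while Nfatc1 and Itgb3 were not called. It called 32.3% and 17.7% of all genes there. With 1 or both of control adipogenic library 2 and KO adipogenic library 1, or any other single library, left out, the counts ran from 1 to 5, 1 to 5, 2 to 5, 1 to 5 and 2 to 5. Leaving out both at once was chosen after seeing the data. Across all fits with libraries left out, 4.13% to 27.8% of all genes were called in osteogenic and 21.7% to 51.99% in adipogenic medium. For the interaction it was 13.97% to 45.9% of all genes. Between media it was 10.6% to 50.2% in control and 19.4% to 42.5% in KO libraries. The counts of members are therefore read only beside these shares. The cause of these changes was not tested.

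The fit with the replicate number as a block called 1, 2, 2, 1 and 3 members, so it changed the count between media in control libraries, where Nfatc1 lost its call. It called 5.78%, 30.2%, 16.9%, 15.1% and 22.4% of all genes. The deviations of equal numbers correlated between genotypes at -0.038 to 0.058 in osteogenic medium. In adipogenic medium they correlated at 0.466, 0.397 and -0.286 for numbers 1, 2 and 3. With 3 libraries per group these values cannot settle whether the numbers mark a pairing, and the labels name none.

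The slope of the macrophage covariate rests mainly on control adipogenic library 2, so the fit carries that library's contrast into the other groups. The macrophage covariate turned Atp6v0d2 to -0.67 in osteogenic medium, -1.38 in adipogenic medium and -0.72 for the interaction, and Acp5 to 1.63 in adipogenic medium, all of them called. It turned Acp2 to 0.40 and Rac2 to 0.55 in osteogenic medium, Mmp9 to 0.19 and Rac2 to 0.12 in adipogenic medium, and Tnfsf11 to 0.47 and Rac2 to 0.50 between media in KO libraries. Between media, fits that left out libraries ran from -0.18 to 0.18 for Acp2 in KO and from -0.11 to 0.069 for Csf1 in control libraries, with the lowest values where both libraries were left out.

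Relative to Csf1r, Adgre1, Cd68 and Ptprc alone, the adipogenic KO minus control differences were 0.93 for Ctsk, 0.72 for Nfatc1 and 1.11 for Tnfrsf11a. The mean of these markers was itself lower in KO adipogenic libraries, which lifts every gene on that scale. TPM scaling shifted the median of all genes by 0.16 in adipogenic medium, 0.17 for the interaction and -0.11 between media in control libraries. Depth limits Dcstamp, Ocstamp and Calcr, where differences under a few fragments were not detectable.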
